A study of Rattus norvegicus with 21 samples.

Results

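The livers of early weaned SD rats were compared with those of control SD rats at d211, long after weaning. The comparison holds 3 early weaned and 3 control libraries, 6 of the 21 liver libraries of the series, taken by their labels, and covers all genes of the table. Early weaning means that pups lose their mother's milk before the usual age, and the controls carry no treatment in the labels. Neither group had leucine. A further 3 libraries at d211 come from SD rats that were weaned early and drank water with 1.5% leucine, and the other 12 libraries are from control and early weaned Wistar rats at d23 and d63. The labels give neither the age at weaning nor the sex, diet, feeding state or hour of sampling, and they do not say that the libraries came from separate animals. The p-values therefore measure the spread between these libraries, which may be technical. The title of the series names obesity in adult rats, fatty acid beta-oxidation and cholesterol metabolism as its subject.

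The liver makes cholesterol from acetyl-CoA through the mevalonate pathway, makes fatty acids from the same precursor, burns fatty acids in mitochondria and peroxisomes, and turns surplus amino acids into glucose and urea. It also secretes most plasma proteins and clears steroids, bile acids and drugs. Many of these functions follow a daily rhythm, in which Arntl pairs with Clock or Npas2 to switch on genes such as Dbp, Tef, Nr1d1 and the Per and Cry genes, whose products then repress the loop.

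The tissue label was checked against marker genes. The summed level of 11 tested hepatocyte markers was 74320 to 80580 FPKM (fragments normalized for transcript length and library depth, the deposited unit of level) in the controls and 73250 to 79690 FPKM in the early weaned livers. Albumin, Alb, alone stood at 41077, 42524 and 39997 FPKM in the controls and 38029, 46151 and 40831 FPKM in the early weaned livers, so the ranges overlapped. Alb makes up most of that sum. Member by member, 9 of the 11 were lower, 4 of them without overlap. Their median log2 change was -0.34 (-0.51 to -0.28 when a library was left out). It was -0.34 to -0.14 in the alternatives of tool, filter, scale or model. None of the 11 was called by edgeR or limma, DESeq2 called 4, and 4 had an unadjusted p below 0.05. Over all genes tested, 10.6% were lower and 11.2% higher without overlap, DESeq2 called 7.65% and 17.3% had an unadjusted p below 0.05. These shares apply to all list counts below. The part of the lower hepatocyte markers in the liver functions given below as lower was not tested. In bulk tissue, fewer cells of a type and less RNA per cell cannot be told apart. Total counts ran from 52054644 to 75118153 per library. The early weaned libraries held more genes at an FPKM of at least 1, 10844 to 11082 against 10250 to 10585 in the controls, and their TMM scaling factors were 1.015 to 1.134 against 0.8955 to 0.9766. The part of this shift in the results was not tested. Values of 3 libraries are given in the order of their replicate numbers, and FPKM levels are as deposited.

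In the early weaned livers, genes of sterol synthesis (Pmvk), acetyl-CoA carboxylation (Acacb), immediate-early response (Klf6, Jund) and peptide transport for antigen presentation (Tap1, Tap2) rose. Genes of serine breakdown (Sds), the clock and its output (Clock, Hlf, Tef), steroid conversion (Sult2a1, Hsd17b2) and iron control (Hamp) fell. In all, 108 of 15019 tested (0.719%) passed at a Benjamini-Hochberg adjusted p below 0.05 in edgeR's two-sided quasi-likelihood test. Of these, 63 rose (0.419%) and 45 fell (0.3%). The change was at least 2-fold in 57 of the 63 and in 28 of the 45, with a median size on the log2 scale of 1.57 among the rises and 1.19 among the falls. The genes that rose were mostly low in abundance, with a median of 8.41 FPKM in the higher group, whereas the genes that fell had a median of 37.3 FPKM. With limma on log2(FPKM + 1), which does not use the TMM factors, 145 genes rose and 37 fell, and the median log2 change of all genes was 0.131 instead of 0.0225.

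**Figure D1:**
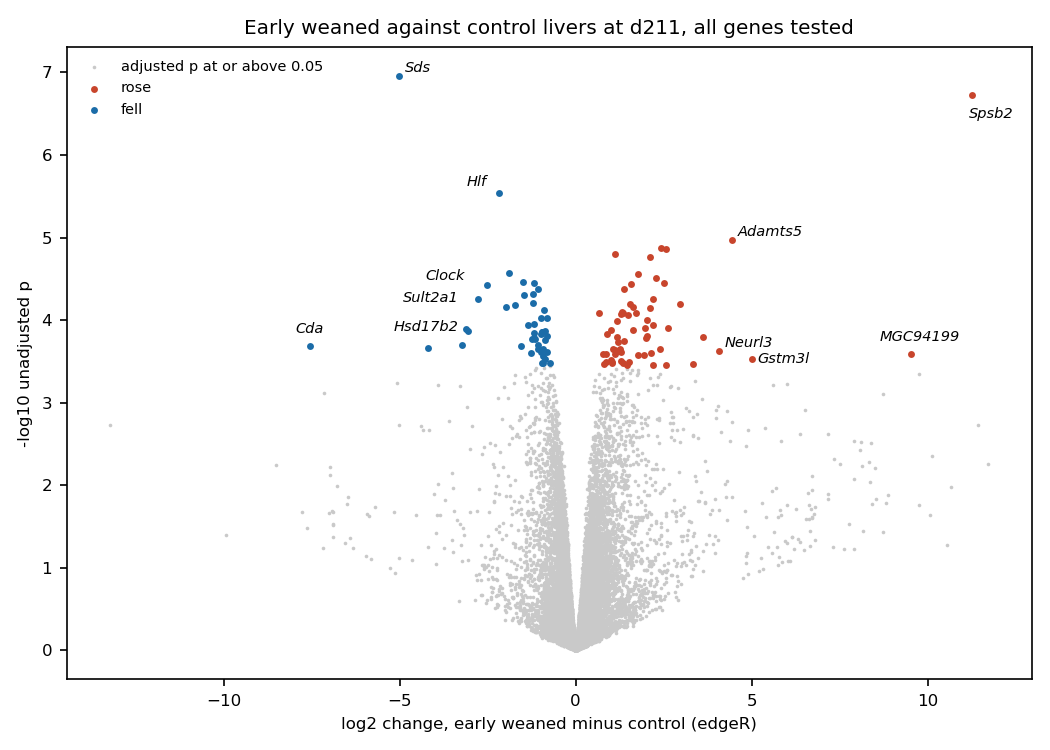
Each point is 1 of the 15019 genes tested, with the log2 change of early weaned against control livers on the horizontal axis and −log10 of the unadjusted p on the vertical axis. The 63 genes that rose are red and the 45 that fell are blue, and Sds and Spsb2 lie above all others.

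The 108 genes sit close to the threshold. Of them, 105 had an adjusted p above 0.03, and only Sds, Spsb2 and Hlf were below it. All 108 had no overlap between the 3 control and 3 early weaned libraries in TMM-scaled counts, which was also so for 21.8% of all genes tested. On FPKM, 20.8% of all genes tested were higher without overlap and 4.24% lower without overlap, so the scale moves the balance of directions. Early weaned library 2 was the nearest to the controls in 55 of the 63 rises (87.3%), against 54.6% of all genes that were higher, and in 22 of the 45 falls, against 26.5% of all genes that were lower. Without that library 534 genes passed, whereas 2 passed without early weaned library 1 and 24 without library 3. Leaving out a control library left 76, 7 or 3 genes, in the order of their numbers, and leaving out leucine libraries 1, 2 or 3, which enter through the shared spread and the filter on low counts, left 2, 12 or 71. Only Sds and Spsb2 passed in each of the 6 fits that left out a control or early weaned library, and 104 of the 108 passed in 3 or fewer of them. All 108 kept their direction in every alternative fit in which they were tested.

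**Figure D2:**
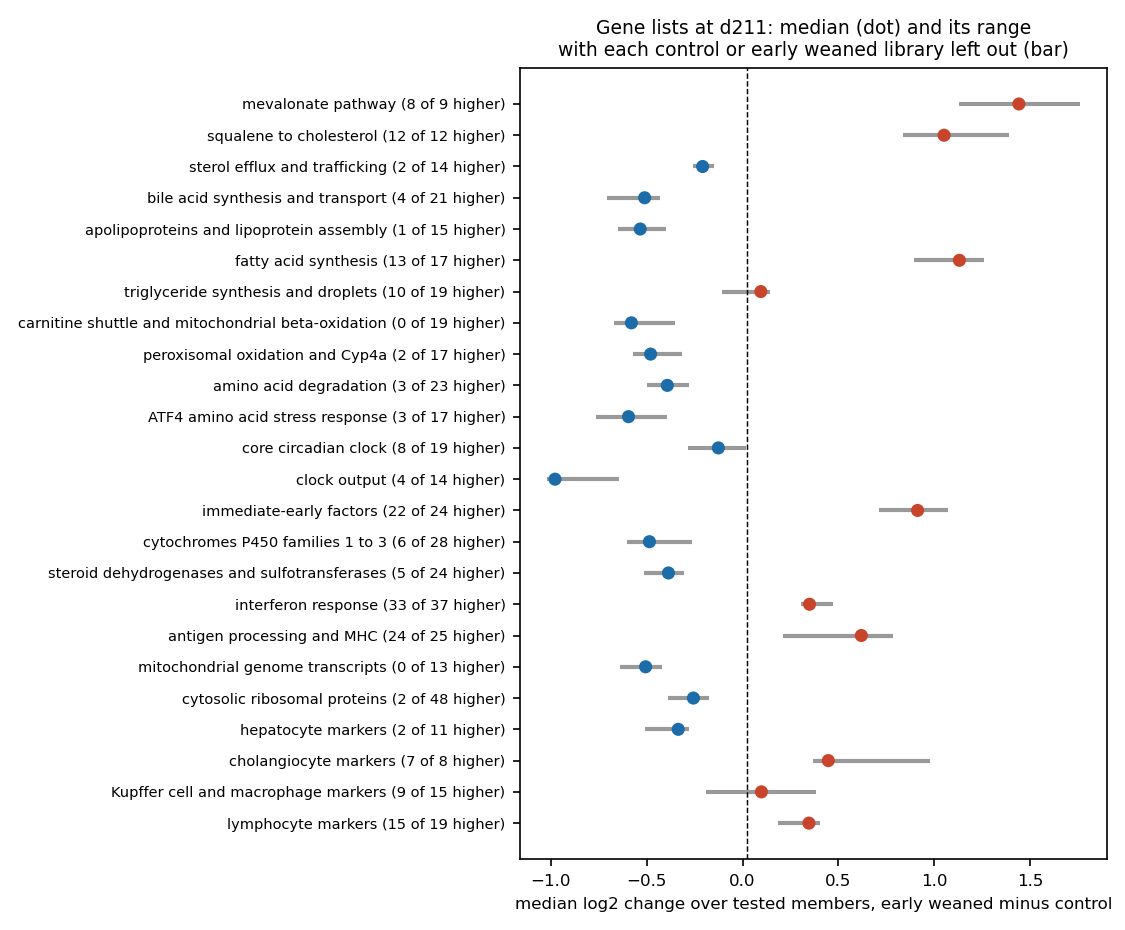
Dots give the median log2 change, early weaned minus control, over the tested members of 24 gene lists, and bars give its range when each control or early weaned library was left out. The dashed line is the median of all genes, 0.0225, and sterol and fatty acid synthesis lie farthest to its right and clock output farthest to its left.

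Cholesterol synthesis genes were higher in the early weaned livers along nearly the whole pathway. Of 9 tested mevalonate pathway genes, 8 were higher and none of these 8 overlapped between the groups, against 11.2% of all genes that were higher without overlap. Their median log2 change was 1.44 (1.13 to 1.76 when a library was left out). Of 12 genes from squalene to cholesterol all 12 were higher, 9 of them without overlap, with a median of 1.05 (0.838 to 1.39). Of the 21 genes of both lists, only Pmvk passed edgeR's test, while 8 of the 9 and 9 of the 12 had an unadjusted p below 0.05, as had 17.3% of all genes tested. DESeq2's Wald test, which passed 7.65% of all genes, called 8 of the 9 and 8 of the 12, and limma on log2(FPKM + 1), which passed 1.21%, called 2 and 0.

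Pmvk encodes phosphomevalonate kinase, which acts in the middle of the mevalonate pathway. Its level was 26.9, 16.4 and 22.3 FPKM in the controls and 87.1, 58.6 and 87.8 FPKM in the early weaned livers. The early weaned libraries all lay above the highest control, library 2 the least, and Pmvk rose by 1.62 in log2 units (SE 0.26, adjusted p = 0.04). With leucine it stood at 38.7, 53.1 and 25.3 FPKM, and library 3 of these lay below the highest control. Mvk, the mevalonate kinase that acts just before it, read 8.23, 6.72 and 6.86 FPKM in the controls and 18.9, 13.1 and 30.7 FPKM in the early weaned livers. Its log2 change of 1.29 (SE 0.25, adjusted p = 0.0572) fell just short of the threshold. Fdps, farnesyl diphosphate synthase, and Hmgcs1, which makes HMG-CoA, are named after their values were seen. Their log2 changes were 1.26 (SE 0.28, adjusted p = 0.0705) and 1.74 (SE 0.47, adjusted p = 0.101). Control library 1 was the highest control for both, at 99.7 FPKM of Fdps and 162 FPKM of Hmgcs1.

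The later steps gave the same order of groups, and the sensors of sterol level were mixed. Cyp51, which removes a methyl group from lanosterol, stood at 73.3, 44.0 and 36.6 FPKM in the controls and 142, 101 and 189 FPKM in the early weaned livers, without overlap, a log2 change of 1.27 (SE 0.28, adjusted p = 0.0727). Dhcr7, the reductase of the last step, had a log2 change of 1.42 (SE 0.33, adjusted p = 0.0765). Insig1, which holds the sterol sensor in the endoplasmic reticulum and is itself a target of SREBP factors, showed 47.3, 24.1 and 13.1 FPKM in the controls and 262, 109 and 262 FPKM in the early weaned livers. Early weaned libraries 1 and 3 stood far above library 2, and the log2 change of 2.68 (SE 0.62, adjusted p = 0.0766) did not pass. Srebf2, the factor that drives the sterol genes, read 13.5, 8.68 and 9.81 FPKM in the controls and 19.99, 15.1 and 20.6 FPKM in the early weaned livers, a log2 change of 0.59 (SE 0.18, adjusted p = 0.137). Of 9 tested genes of sterol sensing and lipoprotein uptake 5 were higher and 4 lower, with a median of 0.16. None of the 9 was called by edgeR or limma, DESeq2 called 3, and 3 had an unadjusted p below 0.05. Genes of sterol efflux and trafficking differed in direction, since 2 of 14 were higher and their median was -0.21, or 0.0029 with limma on log2(FPKM + 0.1). Abcg5, a transporter that moves cholesterol into bile, had 5.61, 5.46 and 10.7 FPKM in the controls and 0.272, 1.04 and 0.322 FPKM in the early weaned livers. Its log2 change of -3.90 (SE 0.78, adjusted p = 0.0584) did not pass, although each early weaned library lay below each control.

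Fatty acid synthesis genes were higher in 13 of 17 tested cases, 12 of them without overlap, with a median log2 change of 1.13 (0.893 to 1.26 when a library was left out). Only Acacb passed in edgeR and in limma, against 8 of the 17 by DESeq2. Of all genes tested, 11.2% were higher without overlap and DESeq2 called 7.65%. Acacb encodes the acetyl-CoA carboxylase whose product, malonyl-CoA, blocks the entry of fatty acids into mitochondria. It stood at 9.64, 6.32 and 5.52 FPKM in the controls and 36.2, 22.5 and 25.5 FPKM in the early weaned livers, and at 18.9, 29.6 and 12.5 FPKM in the leucine libraries. No early weaned library overlapped a control, and Acacb rose by 1.76 in log2 units (SE 0.31, adjusted p = 0.0446). Fasn, the fatty acid synthase, had 29.2, 5.14 and 5.28 FPKM in the controls and 69.9, 42.9 and 87.9 FPKM in the early weaned livers. Control library 1 stood far above the other controls, and the log2 change of 2.15 (SE 0.85, adjusted p = 0.233) did not pass.

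Pnpla3, a lipase that follows carbohydrate intake, and Scd, which desaturates fatty acids, are named after their values were seen. Pnpla3 ranged from 1.02, 0.285 and 0.186 FPKM in the controls to 53.6, 7.36 and 38.6 FPKM in the early weaned livers, and to 4.55, 58.3 and 1.23 FPKM with leucine. Scd likewise stood at 16.5, 0.713 and 0.764 FPKM, at 299, 48.6 and 102 FPKM and at 114, 338 and 15.2 FPKM in these groups. Both were thus higher in each early weaned library than in each control, with a wide spread inside each group, and neither passed (adjusted p = 0.089 and 0.166). Srebf1, the transcription factor over this pathway, overlapped between the groups at 95.8, 30.6 and 36.5 FPKM in the controls and 38.1, 67.6 and 54.5 FPKM in the early weaned livers. Its log2 change was -0.20 (SE 0.46, adjusted p = 0.884), and it turned to 0.13 with limma on FPKM and to 0.45 without control library 1.

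Triglyceride and lipid droplet genes moved both ways. Plin3, a droplet coat protein, rose by 2.03 in log2 units (SE 0.32, adjusted p = 0.0383), from 7.53, 7.60 and 5.57 FPKM to 37.1, 17.1 and 45.9 FPKM. Dgat2, which completes triglyceride synthesis, fell by 1.28 in log2 units (SE 0.23, adjusted p = 0.0444). Its levels were 133, 214 and 161 FPKM in the controls and 65.3, 88.9 and 89.0 FPKM in the early weaned livers, and with leucine 179.8, 211 and 167 FPKM, inside the control range. G0s2, an inhibitor of the lipase that opens droplets, fell by 1.98 in log2 units (SE 0.30, adjusted p = 0.0357). It read 366, 182 and 225 FPKM in the controls and 58.2, 102 and 61.6 FPKM in the early weaned livers, and the leucine libraries stood at 104, 103 and 98.7 FPKM, all below the controls. Of 19 tested genes of this list 10 were higher, and the median of 0.095 turned to -0.11 without control library 3. Acsl3, which loads fatty acids for droplet growth and was picked after its values were seen, rose by 1.29 in log2 units (SE 0.23, adjusted p = 0.0444).

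**Figure D3:**
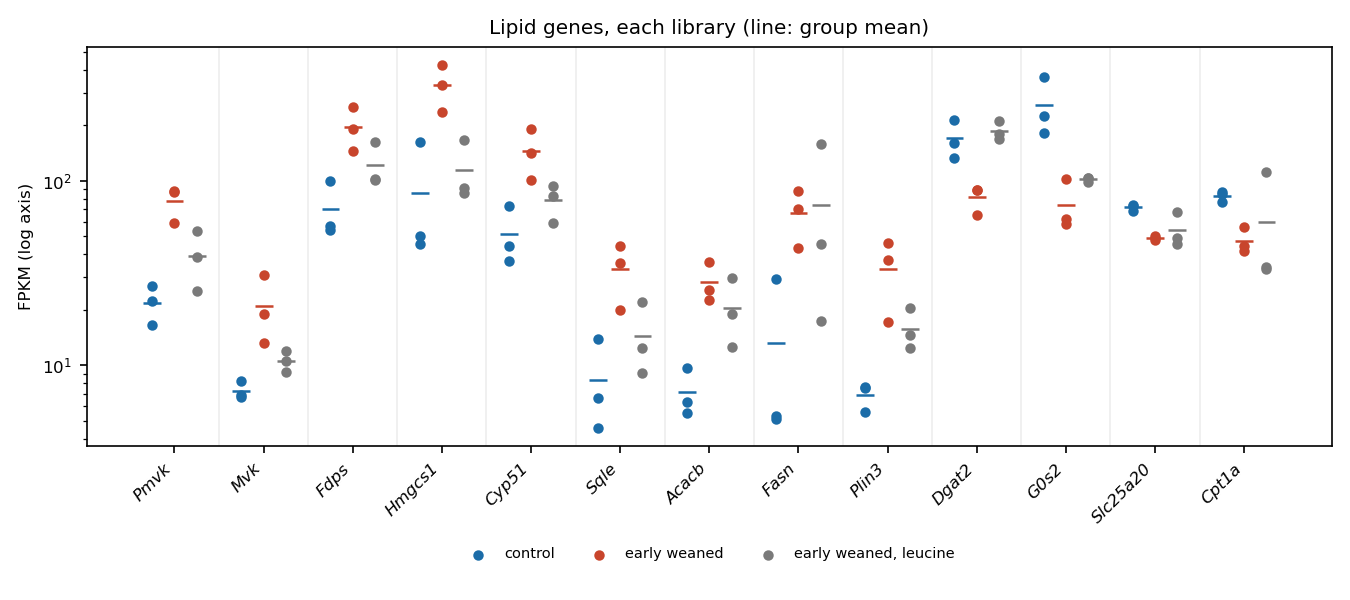
Levels of 13 lipid genes in FPKM on a log axis, with a point for each of the 3 libraries of a group and a line at the group mean. The sterol and fatty acid synthesis genes on the left are higher in early weaned livers, Dgat2, G0s2, Slc25a20 and Cpt1a on the right are lower, and the leucine libraries are shown beside them.

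Genes that burn fatty acids in mitochondria were lower, although no single gene passed in edgeR. All 19 tested genes of the carnitine shuttle and mitochondrial beta-oxidation had a log2 change below 0, as had 47.7% of all genes tested. Of these, 13 had no overlap between the groups, against 10.6% of all genes that were lower without overlap. Their median was -0.58 (-0.67 to -0.35 when a library was left out). In the alternatives of tool, filter, scale or model it ran from -0.58 to -0.24. EdgeR and limma called 0 of the 19, DESeq2 called 7, and 13 had an unadjusted p below 0.05. Lists of other functions were also mostly lower. Of 48 cytosolic ribosomal protein genes 46 were lower (4 without overlap, median -0.26). Of 41 nuclear-encoded respiratory chain genes 37 were lower (14 without overlap, median -0.21). So were 26 of 30 proteasome genes and 32 of 39 of complement and coagulation. A count of lower genes is thus not particular to 1 function, here or in the lists below. Slc25a20, which carries acylcarnitines into mitochondria, had 74.0, 72.8 and 68.8 FPKM in the controls and 48.6, 50.2 and 47.5 FPKM in the early weaned livers, a tight separation with a log2 change of -0.77 (SE 0.16, adjusted p = 0.0651). Etfb, part of the electron carrier that serves the acyl-CoA dehydrogenases, stood at 291, 323 and 327 FPKM in the controls and 236, 258 and 219.6 FPKM in the early weaned livers (log2 change -0.61, adjusted p = 0.0724). Cpt1a, the entry enzyme that malonyl-CoA inhibits, read 84.8, 76.6 and 87.3 FPKM in the controls and 44.0, 41.4 and 56.4 FPKM in the early weaned livers. The groups did not overlap. The leucine libraries were uneven at 33.8, 33.0 and 112 FPKM, and the fit, which shares the spread of all 9 libraries, gave a log2 change of -1.03 (SE 0.42, adjusted p = 0.247). Ppara, the nuclear receptor that drives these genes, overlapped at 6.70, 6.67 and 2.33 FPKM in the controls and 3.66, 2.91 and 3.69 FPKM in the early weaned livers.

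Peroxisomal oxidation followed the same direction in 15 of 17 tested genes, with a median of -0.48 (-0.57 to -0.32). EdgeR called 0 of the 17, with 8 at an unadjusted p below 0.05, 4 by DESeq2 and 0 by limma. Alternatives of tool, filter, scale or model gave medians of -0.48 to -0.18. Phyh, which starts the breakdown of branched phytanic acid in the same organelle and is not in that list, stood at 813, 1021 and 875 FPKM in the controls and 382, 402 and 356 FPKM in the early weaned livers. It fell by 1.46 in log2 units (SE 0.21, adjusted p = 0.0357), and the leucine libraries read 729.8, 561 and 939 FPKM, all above the early weaned ones. In the ketogenesis list 6 of 12 genes were higher, with a median of -0.087 that turned to 0.076 with limma on FPKM, and edgeR called 0 of the 12, with 5 at an unadjusted p below 0.05, 3 by DESeq2 and 0 by limma. The 13 mitochondrial transcripts of the organelle's own genome were all lower, with a median of -0.51 and a summed level of 82900 to 98100 FPKM in the controls against 70450 to 80840 FPKM. EdgeR called 0 of the 13, with 6 at an unadjusted p below 0.05 (all genes 17.3%), 4 by DESeq2 (7.65%) and 0 by limma. Their part in the results for nuclear mitochondrial genes was not tested.

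Among apolipoproteins and lipoprotein assembly factors 14 of 15 tested genes were lower, with a median of -0.53 (-0.65 to -0.40). EdgeR and limma called 0 of them, DESeq2 called 7, and 9 had an unadjusted p below 0.05. Their median ran from -0.56 to -0.31 in the alternatives of tool, filter, scale or model. Apoc4, a small apolipoprotein outside that list and picked after its values were seen, fell by 0.94 in log2 units (SE 0.17, adjusted p = 0.0451), from 692, 863 and 858 FPKM to 501, 526 and 432 FPKM. Lcat, the plasma enzyme that esterifies cholesterol on HDL, had 392, 491 and 443 FPKM in the controls and 288, 298 and 297 FPKM in the early weaned livers, a log2 change of -0.80 (SE 0.16, adjusted p = 0.055). In bile acid synthesis and transport 17 of 21 tested genes were lower, with a median of -0.51. The only member that fell was Akr1c14, a hydroxysteroid dehydrogenase, at 312, 448 and 443 FPKM in the controls and 213, 224 and 229.9 FPKM in the early weaned livers (log2 change -1.07, adjusted p = 0.0438). Cyp7a1, whose hydroxylase sets the rate of the bile acid pathway, overlapped at 37.9, 21.0 and 17.7 FPKM in the controls and 14.2, 9.26 and 23.0 FPKM in the early weaned livers, with a log2 change of -0.94 (SE 0.69, adjusted p = 0.552).

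Among genes of amino acid catabolism, Sds, Cdo1 and Ahcy fell. Sds, serine dehydratase, turns serine into pyruvate for glucose synthesis and is known for its induction by glucagon and protein intake. It stood at 25.9, 33.6 and 52.3 FPKM in the controls and 1.43, 1.61 and 0.937 FPKM in the early weaned livers. All early weaned libraries lay far below the lowest control, and Sds fell by 5.01 in log2 units (SE 0.36, adjusted p = 0.00141). In the leucine libraries it read 92.7, 75.5 and 60.5 FPKM, above all 6 others. Cdo1, which oxidizes cysteine, fell by 0.97 in log2 units (SE 0.18, adjusted p = 0.0484), from 776, 859 and 739 FPKM to 419, 539.8 and 442 FPKM. Ahcy, which clears the methylation product S-adenosylhomocysteine, fell by 0.86 in log2 units (SE 0.16, adjusted p = 0.0481), with levels of 415, 483 and 500.5 FPKM in the controls and 322, 316 and 255 FPKM in the early weaned livers. Urad, of the urate breakdown that rodents keep and of no list here, fell by 0.82 in log2 units (SE 0.13, adjusted p = 0.0374). Over the list of amino acid degradation, 20 of 23 tested genes were lower and 2 fell, and the median was -0.39 (-0.50 to -0.28). Alternatives of tool, filter, scale or model gave -0.39 to -0.12. The list of the methionine cycle and one-carbon enzymes was mixed, with 9 of 21 tested genes higher and 12 lower, of which 1 fell. Its median of -0.11 turned to 0.1 with limma on FPKM.

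The genes that the factor ATF4 switches on when amino acids run short were lower in 14 of 17 tested cases, with a median of -0.59 (-0.76 to -0.39). EdgeR and limma called 0 of them, DESeq2 called 4, and 10 had an unadjusted p below 0.05. Their median ran from -0.61 to -0.29 in the alternatives of tool, filter, scale or model. Atf5 had 500.0, 760.4 and 645 FPKM in the controls and 412, 403 and 411 FPKM in the early weaned livers (adjusted p = 0.0841), and Trib3, a pseudokinase of the same response, had 5.42, 4.49 and 7.16 FPKM in the controls and 2.77, 1.70 and 4.86 FPKM in the early weaned livers (adjusted p = 0.282). Atf4 itself, whose control is largely through translation, was higher in each early weaned library, at 144, 95.7 and 114 FPKM against 86.5, 57.9 and 85.2 FPKM, with an adjusted p of 0.252; it is named after its values were seen. For the 19 tested genes of branched-chain amino acid catabolism the median was -0.13, and it turned to 0.067 with limma on FPKM. For the 21 of leucine sensing and mTORC1 it was 0.055. EdgeR and limma called 0 of these 19 and 21 genes, DESeq2 called 0 and 1, and 3 and 2 had an unadjusted p below 0.05, shares below the 17.3% of all genes.

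The activator genes of the clock moved in both directions. Clock fell by 2.52 in log2 units (SE 0.35, adjusted p = 0.0354), from 2.56, 2.55 and 2.22 FPKM to 0.506, 0.673 and 0.282 FPKM, with no overlap. It did not pass in the fit of only the 6 control and early weaned libraries. In Wistar livers Clock varied as widely inside groups. It read 2.34, 3.0 and 0.54 FPKM in the d23 controls and 0.41, 2.82 and 1.45 FPKM in the d63 early weaned livers. Npas2, which can stand in for Clock beside Arntl, rose by 2.40 in log2 units (SE 0.42, adjusted p = 0.0443), from 2.19, 1.47 and 1.68 FPKM to 13.7, 9.41 and 9.55 FPKM. Arntl had 3.23, 1.89 and 1.11 FPKM in the controls and 10.6, 10.3 and 7.21 FPKM in the early weaned livers, higher in each early weaned library without passing (log2 change 1.98, adjusted p = 0.128). The leucine libraries read 0.459, 0.469 and 0.265 FPKM for Clock, as low as the early weaned ones, and 3.26, 2.75 and 0.841 FPKM for Npas2, from below to above the control range. Of the 19 core clock genes tested 8 were higher and 11 lower, so the median of -0.13 (0.044 with limma on FPKM) says little of single members.

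Targets of the clock were lower. Hlf and Tef encode PAR bZIP factors, which pass the rhythm on to detoxification genes, and Dbp is the third of that family. Hlf stood at 10.7, 6.01 and 8.74 FPKM in the controls and 1.92, 2.15 and 2.27 FPKM in the early weaned livers, and it fell by 2.19 in log2 units (SE 0.22, adjusted p = 0.0144). Tef stood at 17.8, 16.8 and 21.7 FPKM in the controls and 5.18, 5.28 and 9.47 FPKM in the early weaned livers, and it fell by 1.72 in log2 units (SE 0.26, adjusted p = 0.0357). Early weaned library 3 was the highest of its group for Tef, and it was so for Dbp, which had 72.6, 68.6 and 139 FPKM in the controls and 0.871, 0.993 and 14.6 FPKM in the early weaned livers. Every early weaned library lay below every control for Dbp, and its log2 change of -4.33 (SE 1.04, adjusted p = 0.0815) did not pass. Gpr146, a receptor listed among the outputs, fell by 0.96 in log2 units (SE 0.16, adjusted p = 0.04). Of 14 clock output genes tested 10 were lower and 3 fell, with a median of -0.98 (-1.02 to -0.64). The median ran from -1.01 to -0.49 in the alternatives of tool, filter, scale or model.

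Of the repressors given here, all but Per1 had a log2 change below 0. Nr1d1, the haem-binding repressor of Arntl, read 74.6, 74.8 and 84.4 FPKM in the controls and 14.2, 17.3 and 53.8 FPKM in the early weaned livers (log2 change -1.68, adjusted p = 0.0851). Per2 read 6.18, 2.41 and 6.11 FPKM in the controls and 1.76, 2.60 and 2.62 FPKM in the early weaned livers, where control library 2 lay among the early weaned ones (adjusted p = 0.0946), and Cry2 read 6.50, 6.77 and 8.91 FPKM in the controls and 3.77, 4.08 and 5.61 FPKM in the early weaned livers (adjusted p = 0.0582). Early weaned library 3 again stood nearest to the controls for Nr1d1 and Cry2. Per3 and Ciart, named after their values were seen, stood at 2.22, 1.30 and 3.20 FPKM and 1.36, 1.06 and 3.59 FPKM in the controls and at 0.104, 0.152 and 0.666 FPKM and 0, 0.103 and 0.508 FPKM in the early weaned livers. Per1 overlapped at 4.64, 7.19 and 1.85 FPKM in the controls and 10.1, 3.31 and 5.91 FPKM in the early weaned livers, with a log2 change of 0.25 that turned to -0.20 without early weaned library 1. The hour of sampling is not in the labels, so a difference in hour between the groups cannot be told apart from a difference in the clock genes themselves.

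**Figure D4:**
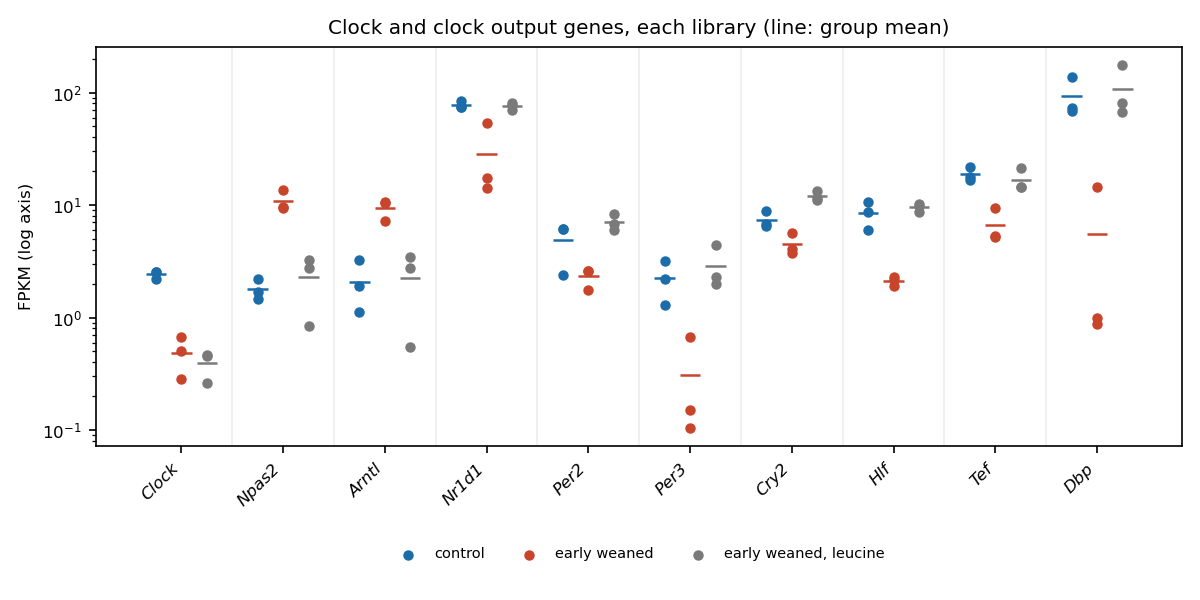
Levels of 10 clock and clock output genes in FPKM on a log axis, with a point per library and a line at the group mean. The means of Npas2 and Arntl are higher in the early weaned livers and those of the other 8 are lower, and the leucine libraries are as low as the early weaned ones for Clock.

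The E-box, the site that the Arntl complex binds, was sought in promoters because clock targets moved together. Promoters were taken from RefSeq on the rat build GRCr8, from 250 bases before to 50 bases after the start. Of the symbols of tested genes, 10306 of 14795 matched the table. The letters CACGTG, a palindrome that reads alike on both strands, stood in 6.42% of all 33469 promoters of the table and in 9.62% of those of tested genes. They stood in 4 of 13 matched core clock promoters (Bhlhe40, Bhlhe41, Ciart and Nr1d1) and in 4 of 11 of clock output (Gpr146, Lonrf3, Ppp1r3c and Tef). Of the genes that fell, 6 of 30 matched promoters held it (Exosc5, Gpr146, Irx1, Sephs2, Tef and Urad), and of those that rose 1 of 39 (Klf6). The D-box that Hlf, Tef and Dbp bind was sought as TTANGTAA on both strands and stood in 2.24% of all promoters, in 1 core clock promoter (Per2) and in 0 of 11 of clock output. The sterol regulatory element, sought as TCACNCCAC on both strands, stood in 1.12% of all promoters and in 0 of 16 matched promoters of sterol synthesis genes. Such matches describe letters only. The promoter stretches of Tef, Nr1d1 and Ciart are shown as examples. They were picked among genes that held the E-box and were lower in every early weaned library. Other genes that were lower in every early weaned library are not shown. The E-box is in capitals, and the stretches are read 5′ to 3′ on the strand of the gene.
Tef: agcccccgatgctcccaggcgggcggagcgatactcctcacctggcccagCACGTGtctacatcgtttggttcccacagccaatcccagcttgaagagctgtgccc
Nr1d1: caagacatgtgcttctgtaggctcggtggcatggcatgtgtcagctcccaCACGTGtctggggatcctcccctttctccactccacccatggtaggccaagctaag
Ciart: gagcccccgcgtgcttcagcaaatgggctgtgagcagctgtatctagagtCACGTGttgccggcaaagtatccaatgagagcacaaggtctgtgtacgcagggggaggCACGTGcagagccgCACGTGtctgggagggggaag
The Tef stretch is chr7:115206579-115206684 on the plus strand, with the E-box 198 bases before the start. The Nr1d1 stretch is chr10:84229590-84229695 on the minus strand, from 1 of 2 promoters that the table holds for it, with the E-box at 191 bases. The Ciart stretch is chr2:186112247-186112389 on the minus strand, and its 3 E-boxes begin 93, 35 and 21 bases before the start.

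Immediate-early factors, which cells switch on within minutes of a stimulus, were higher in 22 of 24 tested cases, with a median of 0.91 (0.711 to 1.07). Of the 22, 12 were without overlap and 2 passed the test. Over all genes tested, 52.3% were higher, 11.2% were so without overlap and 0.419% rose. Klf6, a zinc finger factor, rose by 2.11 in log2 units (SE 0.27, adjusted p = 0.032), from 0.688, 0.894 and 0.686 FPKM to 4.67, 2.54 and 4.39 FPKM. Jund, a subunit of AP-1, rose by 1.04 in log2 units (SE 0.19, adjusted p = 0.0484). Its levels were 41.7, 31.8 and 48.6 FPKM in the controls and 97.4, 72.1 and 123 FPKM in the early weaned livers, and the leucine libraries at 22.6, 18.5 and 21.1 FPKM lay below the controls. Jun had 30.3, 9.80 and 22.2 FPKM in the controls and 53.3, 55.7 and 64.2 FPKM in the early weaned livers (adjusted p = 0.086). Fos overlapped at 2.83, 0.325 and 1.46 FPKM in the controls and 3.30, 1.47 and 0.891 FPKM in the early weaned livers, and its log2 change of 0.11 turned to -0.50 without early weaned library 1. Myc and Egr1, named after their values were seen, had log2 changes of 2.40 (SE 0.46, adjusted p = 0.0544) and 1.32 (SE 0.28, adjusted p = 0.0678). Atf3 and Nr4a1, also picked so, were high in early weaned libraries 1 and 3 only, at 1.89, 0.684 and 5.82 FPKM and 1.77, 0.343 and 1.53 FPKM. How the tissue was handled before freezing is not in the labels, and its part in these values was not tested.

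Ppard, a nuclear receptor for fatty acids, was the only member of the nuclear receptor list that passed. It stood at 0.602, 1.17 and 1.05 FPKM in the controls and 9.36, 5.11 and 4.58 FPKM in the early weaned livers, and rose by 2.51 in log2 units (SE 0.35, adjusted p = 0.0354). The leucine libraries read 0.927, 1.28 and 0.824 FPKM, close to the controls. Hnf4a, the factor that maintains hepatocyte identity, had 137, 92.9 and 104 FPKM in the controls and 98.1, 71.6 and 86.9 FPKM in the early weaned livers, overlapping in FPKM (log2 change -0.60, adjusted p = 0.0903). The list as a whole had 13 of 27 genes higher.

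Some genes of cell junctions and the cytoskeleton rose, and the junction gene Cldn14 fell; except for Tubb2a they are named after their values were seen and form no list. Tjp1 encodes a scaffold protein of tight junctions, and Ocln and Cxadr encode membrane proteins of the same contacts. Ocln stood at 4.81, 4.44 and 3.62 FPKM in the controls and 14.0, 7.39 and 11.4 FPKM in the early weaned livers and rose by 1.12 in log2 units (SE 0.20, adjusted p = 0.0444). Cxadr stood at 5.24, 4.29 and 2.90 FPKM in the controls and 26.0, 10.6 and 27.4 FPKM in the early weaned livers and rose by 2.13 in log2 units (SE 0.38, adjusted p = 0.0444), and Tjp1 rose by 1.11 in log2 units (SE 0.20, adjusted p = 0.0444). Early weaned library 2 was the lowest of its group in all 3. Cldn14, a claudin of these junctions, fell by 0.93 in log2 units (SE 0.16, adjusted p = 0.0443), from 16.7, 20.7 and 24.9 FPKM to 12.8, 11.9 and 13.2 FPKM. Cdh1, the E-cadherin of epithelial cells, had 26.4, 26.5 and 27.7 FPKM in the controls and 57.7, 38.9 and 67.3 FPKM in the early weaned livers, a log2 change of 0.80 (SE 0.15, adjusted p = 0.055). Tubb2a, a beta tubulin, rose by 1.33 in log2 units (SE 0.20, adjusted p = 0.0357), and the calcium-dependent proteases Capn1 and Capn2 rose by 1.03 and 0.89 (adjusted p = 0.0484 and 0.0403).

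Markers of bile duct cells, which share these junction genes, were measured beside them. Of 8 tested cholangiocyte markers 7 were higher. EdgeR and limma called 0, DESeq2 called 1, and 1 had an unadjusted p below 0.05, a share below the 17.3% of all genes. Their summed level was 18.8 to 24.1 FPKM in the controls and 28.2 to 41.7 FPKM in the early weaned livers. Most of that sum was Epcam, at 10.95, 7.14 and 9.78 FPKM in the controls and 24.5, 14.0 and 28.3 FPKM in the early weaned livers, and the ion exchanger Slc4a2. The defining keratin Krt19 overlapped at 1.51, 0.441 and 0.982 FPKM in the controls and 1.36, 1.14 and 1.09 FPKM in the early weaned livers, and Sox9 was at most 0.125 FPKM in any of the 6 libraries. The part of bile duct cells in the junction results was not tested.

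Immune genes rose at the step that loads peptides on MHC class I. Tap1 and Tap2 form the transporter that brings peptides into the endoplasmic reticulum. Tap1 stood at 6.36, 7.79 and 6.27 FPKM in the controls and 24.7, 11.6 and 30.1 FPKM in the early weaned livers, and it rose by 1.46 in log2 units (SE 0.27, adjusted p = 0.0493). Tap2 stood at 4.73, 3.50 and 4.83 FPKM in the controls and 15.4, 7.90 and 16.6 FPKM in the early weaned livers, and it rose by 1.39 in log2 units (SE 0.23, adjusted p = 0.0416). In both, early weaned library 2 lay nearest to the controls. Of 25 tested genes of antigen processing and MHC 24 were higher and 2 rose, with a median of 0.62 (0.209 to 0.782), yet the abundant light chain B2m overlapped at 1085, 981 and 979.6 FPKM against 1405, 1006 and 1459.7 FPKM. Classical MHC genes are near-identical copies, so their single values are uncertain. In the interferon response list 33 of 37 genes were higher, with a median of 0.35 (0.307 to 0.470). EdgeR called 0 of them, limma 1 and DESeq2 8, and 13 had an unadjusted p below 0.05. Among all genes tested, 52.3% were higher, DESeq2 called 7.65% and 17.3% had an unadjusted p below 0.05.

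Inflammatory caspases and a kinase of interferon signalling also rose. Casp4, which senses bacterial lipopolysaccharide, stood at 4.96, 2.78 and 3.09 FPKM in the controls and 14.1, 10.8 and 17.9 FPKM in the early weaned livers and rose by 1.77 in log2 units (SE 0.24, adjusted p = 0.0354). Casp12, a neighbour of that family picked after its values were seen, rose by 2.56 in log2 units (SE 0.47, adjusted p = 0.0493). Ikbke, a kinase that acts before interferon genes, stood at 2.68, 1.93 and 2.34 FPKM in the controls and 9.45, 4.85 and 10.7 FPKM in the early weaned livers and rose by 1.62 in log2 units (SE 0.24, adjusted p = 0.0357). The leucine libraries read 5.46, 5.86 and 4.61 FPKM for Ikbke, above all controls. Lymphocyte markers were higher in 15 of 19 tested cases, with summed levels of 25.4 to 30.02 FPKM in the controls and 32.4 to 44.6 FPKM in early weaned livers. None of the 19 was called by edgeR, limma or DESeq2, and 0 had an unadjusted p below 0.05. Kupffer cell and macrophage markers overlapped at 178 to 426 FPKM against 283 to 549 FPKM. Neutrophil markers overlapped too, at 1.70 to 6.62 FPKM against 4.29 to 14.2 FPKM. The part of immune cells in these results was not tested.

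Genes that clear steroids and drugs fell in several families. Sult2a1, which sulfates bile acids and steroids, stood at 145, 239 and 178 FPKM in the controls and 18.6, 51.4 and 24.4 FPKM in the early weaned livers. It fell by 2.76 in log2 units (SE 0.40, adjusted p = 0.0357), and the leucine libraries lay between at 105, 91.9 and 94.6 FPKM. Hsd17b2, which inactivates oestradiol and testosterone, stood at 474, 519 and 785 FPKM in the controls and 38.3, 69.2 and 139.6 FPKM in the early weaned livers, and it fell by 3.07 in log2 units (SE 0.50, adjusted p = 0.04). Its leucine libraries read 529, 488 and 1103 FPKM, within or above the control range. Of 24 tested steroid dehydrogenases and sulfotransferases 19 were lower and 3 fell, with a median of -0.39 (-0.52 to -0.30). Alternatives of tool, filter, scale or model gave -0.39 to -0.15.

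Among cytochromes P450 of families 1 to 3, 22 of 28 tested genes were lower and 2 fell, with a median of -0.49 (-0.60 to -0.26). Alternatives of tool, filter, scale or model gave -0.49 to -0.22. Cyp2b2, a target of the drug receptor Nr1i3, stood at 8.88, 11.97 and 29.3 FPKM in the controls and 1.60, 3.27 and 1.19 FPKM in the early weaned livers, with control library 3 far above the other controls, and it fell by 3.22 in log2 units (SE 0.55, adjusted p = 0.0438). Cyp2d2, a constitutive drug oxidase, fell by 0.98 in log2 units (SE 0.17, adjusted p = 0.0444), from 1138, 1019.8 and 1197 FPKM to 590.3, 734 and 626 FPKM. Por, the reductase that feeds electrons to all of them, and Cyp2c12, a female-specific rat form, are named after their values were seen. Por had 99.0, 159 and 168 FPKM in the controls and 54.0, 26.9 and 70.5 FPKM in the early weaned livers (adjusted p = 0.0545). Cyp2c12 had 8.01, 18.6 and 12.6 FPKM in the controls and 41.4, 54.0 and 58.9 FPKM in the early weaned livers, each early weaned library above each control (adjusted p = 0.0724). Of 8 tested female-biased liver genes, however, 6 were lower and 1, Sult2a1, fell, with a median of -0.88. All 6 tested male-biased liver genes were lower too, with a median of -0.57, and edgeR called 0 of them. All 7 tested UDP-glucuronosyltransferases were lower, with a median of -0.64. EdgeR and limma called 0 of them, and DESeq2 called 2, as many as had an unadjusted p below 0.05.

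Of the glutathione S-transferases, which tag toxins with glutathione, 2 fell and 1 rose. Gsta2 fell by 1.36 in log2 units (SE 0.22, adjusted p = 0.0397), from 464, 569 and 786 FPKM to 235, 309 and 275 FPKM. Gsta5, of the same alpha class, fell by 1.18 in log2 units (SE 0.20, adjusted p = 0.0405), from 691, 825 and 1029 FPKM to 384, 509 and 396 FPKM. Gstm3l, annotated as like a mu-class enzyme, rose by 5.01 in log2 units (SE 0.91, adjusted p = 0.0481). Its rise rests on unequal libraries, with 3.18, 1.32 and 1.46 FPKM in the controls and 93.2, 6.82 and 128 FPKM in the early weaned livers. These genes and the P450 genes have close paralogs, and reads shared between copies could not be separated in the deposited table. Over 28 tested genes of the class and of Nrf2 targets, 9 were higher and the median of -0.19 turned to 0.081 with limma on FPKM. Abcg2, a drug efflux pump, rose by 1.71 in log2 units (SE 0.26, adjusted p = 0.0357).

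Of the secreted factors, Hamp, the hormone hepcidin that blocks iron export from cells, fell. It stood at 1549, 1639 and 1998 FPKM in the controls and 618, 924 and 484 FPKM in the early weaned livers, and it fell by 1.55 in log2 units (SE 0.27, adjusted p = 0.0438). The leucine libraries at 1176, 1262 and 1579 FPKM lay above all early weaned ones. Fgf21, a fasting hormone, had 41.2, 16.6 and 36.0 FPKM in the controls and 11.2, 7.95 and 16.1 FPKM in the early weaned livers, a log2 change of -1.62 (SE 0.37, adjusted p = 0.0757). Igf1, the growth factor that growth hormone induces, had 125, 165 and 157 FPKM in the controls and 108, 126 and 122 FPKM in the early weaned livers (adjusted p = 0.166). Over 22 tested hepatokines 16 were lower and 1 fell, with a median of -0.44. Alternatives of tool, filter, scale or model gave -0.44 to -0.10. Irs3, an insulin receptor substrate that rodents keep, rose by 2.63 in log2 units (SE 0.42, adjusted p = 0.04), from 1.65, 1.19 and 0.863 FPKM to 13.2, 6.22 and 7.44 FPKM, while Pck1, which commits carbon to glucose synthesis, overlapped at 977, 1056 and 532 FPKM in the controls and 895, 511 and 739 FPKM in the early weaned livers.

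A few calls rest on entries at 0 in a group. Spsb2 encodes a protein with a SOCS box. Its count was 0 in each control, against 4.07, 3.91 and 4.80 FPKM in the early weaned livers. Against a floor of 12 count units per library, about 3 fragments, it was at least 24.7-fold higher (adjusted p = 0.00141), and the leucine libraries read 2.91, 2.29 and 4.37 FPKM. In Wistar livers the entry switched between 0 and several FPKM inside a group, with 3.27, 0 and 3.81 FPKM in the d63 controls, 3.14, 0 and 0 FPKM in the d63 early weaned livers and 0, 0 and 1.46 FPKM in the d23 early weaned livers. Cda, cytidine deaminase, was at 0 in all early weaned livers and at 0.441, 0.771 and 1.02 FPKM in the controls, at least 2.12-fold lower (adjusted p = 0.0438). For MGC94199 the entry at 0 in the controls read 1.21, 0.951 and 0.135 FPKM after early weaning, at least 7.36-fold higher (adjusted p = 0.0444). A second entry of that name was expressed in every library and gave a log2 change of 0.11 (adjusted p = 0.949), so the split of reads between the copies is uncertain. Elovl6, which lengthens fatty acids, was at 0 in all controls and at 0.816, 0.181 and 0.656 FPKM in early weaned livers, and did not pass (adjusted p = 0.251). Cda, MGC94199 and Elovl6 are named after their values were seen.

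A few other genes had large moves. Adamts5, a protease that cuts cartilage proteoglycans, rose by 4.45 in log2 units (SE 0.53, adjusted p = 0.032), from 0.0221, 0.106 and 0.0520 FPKM to 1.68, 1.97 and 1.28 FPKM. It was the only called member of the list of collagens and matrix remodelling, in which 15 of 29 tested genes were higher, with a median of 0.028 that turned to -0.19 without control library 3. The genes that follow are in no list here. Adamdec1, a related metalloprotease of macrophages, stood at 1.15, 0.725 and 0.885 FPKM in the controls and 7.91, 4.33 and 6.72 FPKM in the early weaned livers and rose by 2.56 in log2 units (SE 0.32, adjusted p = 0.032). Neurl3, a ubiquitin ligase picked after its values were seen, rose by 4.09 in log2 units (SE 0.72, adjusted p = 0.0444), from a control mean of 1.92 FPKM to unequal early weaned levels of 42.9, 6.24 and 68.9 FPKM. Slc22a23, an orphan transporter, stood at 20.1, 18.5 and 18.8 FPKM in the controls and 10.2, 11.2 and 7.63 FPKM in the early weaned livers and fell by 1.19 in log2 units (SE 0.16, adjusted p = 0.0354), and its leucine libraries at 10.5, 11.5 and 10.7 FPKM lay below all controls too. Sephs2, of selenocysteine synthesis and typed a pseudogene in the table, fell by 1.51 in log2 units (SE 0.21, adjusted p = 0.0354), from 63.0, 63.2 and 66.9 FPKM to 22.9, 21.97 and 34.4 FPKM.

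**Figure D5:**
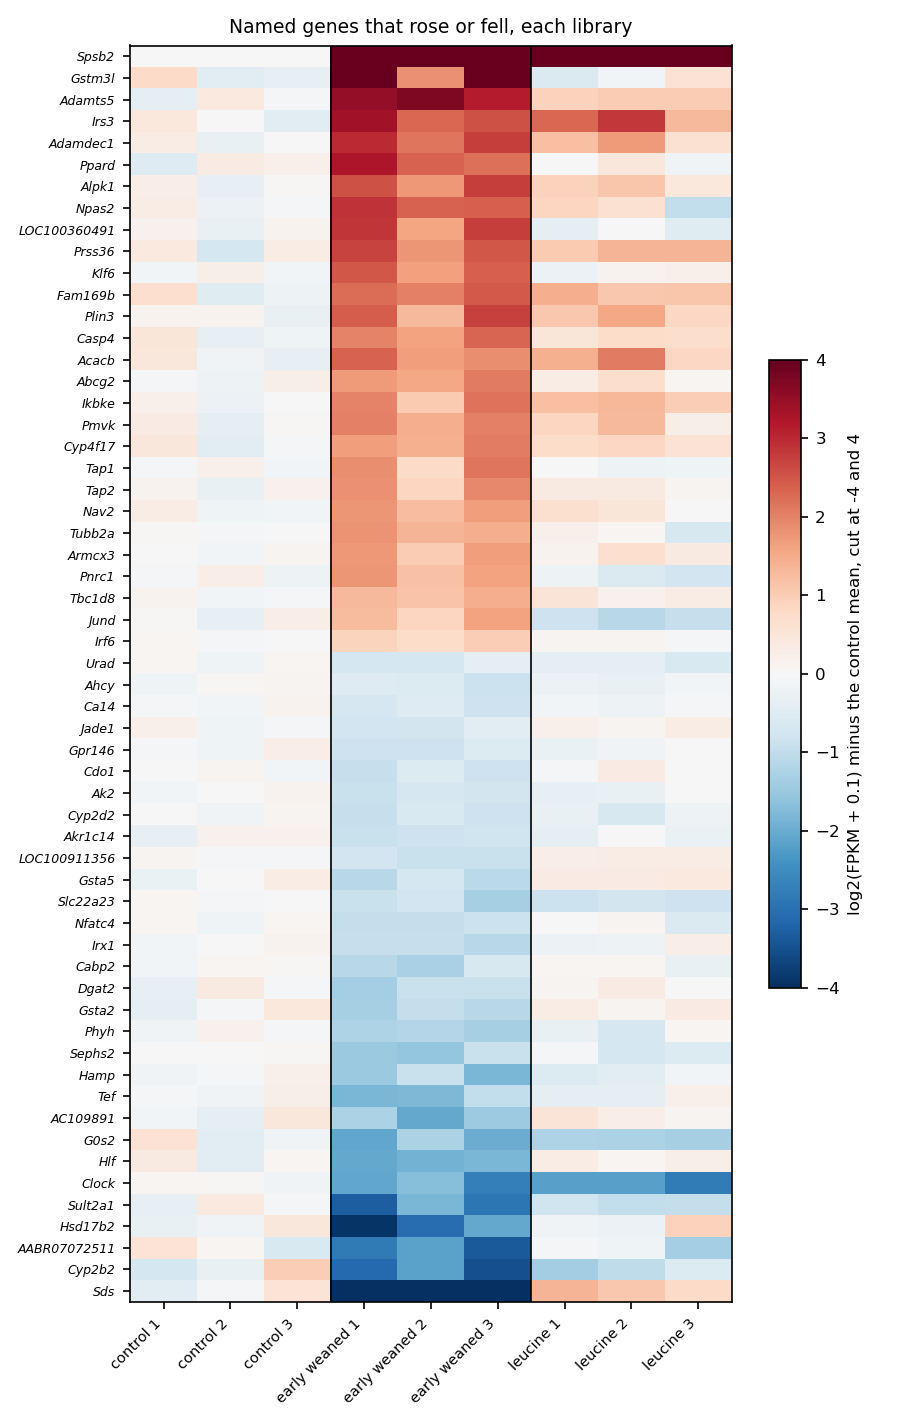
Each row is 1 of 58 named genes that rose (28) or fell (30), and each column is a library. Colour gives log2(FPKM + 0.1) minus the mean of the controls, limited to -4 and 4, and early weaned library 2 is the palest of its group in most of the rises.

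The same contrast in Wistar livers at d23 and d63 shares no library with d211. Of the 108 genes, 107 could be tested there, and edgeR called 0 of them at either age. Their log2 change had the same sign as at d211 in 50 of 107 at d23 (46.7%, against 49.7% of all 14635 genes tested in both tables) and in 37 of 107 at d63 (34.6%, against 42.9%). An unadjusted p below 0.05 was reached by 10 of the 107 at d23 and 13 at d63, against 6.2% and 5.95% of all genes, and 6 of the 10 and 2 of the 13 had the sign of d211. Sds had a log2 change of 0.15 at d23 and 1.34 at d63, and Npas2 had -1.33 and -1.65. Strain, table and age all differ between these sets and cannot be told apart.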

How the data were processed

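Per the labels' protocols, liver RNA came from a column kit and was made into libraries with a template-switching mRNA kit. The authors deposited, per the file headers, an estimated count and an FPKM value (normalized for length and fragments) for each of 32623 rat genes and 9 SD libraries. The counts are whole numbers, and of those up to 16 that are not 0, 41.2% are multiples of 4. About 4 count units were therefore taken as 1 fragment. This is an assumption, since most of these low counts are not multiples of 4. For the aligner, the counter and the rat build, the entry is "not given in the sources used here", and mouse builds (GRCm38, mm10) are the ones listed in the submitters' processing notes. The kit is not stated to mark strand, so antisense and overlapping genes are uncertain.

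EdgeR 4.0.16 (R 4.3.3) fitted the counts of all 9 SD libraries with a mean per group, TMM scaling and a minimum count of 10 (filterByExpr), which left 15019 genes. The quasi-likelihood test was two-sided, with Benjamini-Hochberg adjusted p below 0.05, and SEs were derived from its F value. The biological coefficient of variation was 0.379. Alternatives used DESeq2 1.42.0 and limma 3.58.1. Wistar libraries were fitted apart. On simulated data for this comparison over 14770 genes, 53 of 100 genes changed 2-fold and 95 of 100 changed 4-fold were recovered, with 8 false calls. The changed genes were drawn from tested genes above the median level. Noise was independent between libraries, with no library set apart and no counts in steps of 4. The figures therefore describe such data, not low genes or the uneven libraries of this contrast.

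The members and the 57 gene lists were chosen with earlier results of these data known. Genes are named if they are among the 20 called genes of smallest p in a direction at an FPKM of at least 1, a called member or 1 of the 2 members of smallest p of a list, or on a panel of metabolic and clock genes. A few genes that meet the rule are not reported here. Others were picked after their values were seen. The limit set for a value of 0 was 12 count units in a library, taken as 3 fragments, and it covers counting error only.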

Additional observations from a re-analysis of the deposited data

Results flagged for a closer look

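The genes in the paragraphs below all meet 1 rule, but they are not all the genes that meet it. Every early weaned library lay on 1 side of every control at d211 and on the opposite side in Wistar livers, in TMM-scaled counts. Arhgap8 (1.19 at d211 and -0.909 at d63) and Nsmf (1.05 and -0.620), picked after their values were seen, meet it too and are not listed below. Genes on the same side in both were left out, such as Abcg2, with log2 changes of 1.83 at d23 and 1.71 at d211. The list therefore gives no share of reversed genes. At d211, 21.8% of all genes tested had no overlap, in either direction. The difference between d211 and the Wistar ages was not tested, since strain, table and age differ together, and none of the Wistar values passed edgeR's test. Values are Wistar log2 changes, early weaned minus control, beside those at d211.

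Among clock and clock output genes, Dbp stood at 1.0 at d63 against -4.33 at d211, Per2 at 1.68 against -1.26, Tef at 0.618 against -1.72 and Cry2 at 0.622 against -0.94. Npas2 went the other way, with -1.65 at d63 and 2.40 at d211. The hour of sampling is in no label, so its part was not tested.

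Amino acid genes that fell at d211 were higher at d63, with 1.34 for Sds (-5.01 at d211), 0.452 for Ahcy (-0.86) and 0.412 for Cdo1 (-0.97). Nags, which makes the activator of the urea cycle, had 0.307 (-0.52), and Hibadh, of valine breakdown, had 0.283 (-0.43). Slc43a2, an amino acid transporter, had -1.02 at d23 and -0.627 at d63 against 1.06 at d211.

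In lipid and glucose metabolism, Irs3 had -1.68 at d23 (2.63 at d211), Abcg5 had 0.581 at d23 (-3.90), Etfb had 0.152 at d63 (-0.61) and the glucose 6-phosphate transporter Slc37a4 had 0.477 at d63 (-0.64). Of the clearance genes, Gsta2 had 0.923 and Gsta5 had 1.06 at d23 (-1.36 and -1.18), and the efflux pump Abcc3 had -2.02 at d63 (2.48).

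Some other rises at d211 were picked too. At d63, Adamts5 had -0.954 (4.45), Tbc1d8 had -0.59 (1.12), Armcx3 had -0.374 (1.32) and Tubb2a had -0.864 (1.33). Casp4 had -0.473 at d23 (1.77). Of the genes lower at d211, Jade1 had 0.394 (-0.89), the mitochondrial transcript Mt-nd6 had 0.266 (-0.64) and the replication helicase gene Mcm7 had 0.199 (-0.46), all at d63.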

How the results depend on the processing

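The number of genes called depended on the tool and on single libraries, while all 108 kept their direction wherever they were tested. DESeq2 size factors gave the same 108 genes, no filter gave 147 and a mean FPKM of at least 1 gave 142. DESeq2's Wald test called 1149 (628 rose, 521 fell), and these held all 108. Counts divided by 4 gave 188 (110 and 78). Limma on log2(FPKM + 1) gave 182 (145 and 37), on log2(FPKM + 0.1) 165 (129 and 36), and without a filter 6 (3 and 3). A fit of only the 6 control and early weaned libraries gave 31 (21 and 10), of which 18 were among the 108. The fit with the replicate number as a block gave 49 (25 and 24), of which 35 were among the 108. The labels do not say that equal numbers pair the libraries. Correlations of deviations from the group mean were -0.0902, -0.038 and 0.0619 for equal numbers 1, 2 and 3. For unequal numbers they ran from -0.0925 to 0.127. With 3 libraries per group these values cannot settle whether the libraries were paired. Leaving out 1 control or early weaned library gave 2 to 534 called genes, 1 to 333 that rose and 1 to 201 that fell. Leaving out a leucine library, an alternative added after the data were seen, gave 2 (1 rose, 1 fell), 12 (7 and 5) or 71 (43 and 28).

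Directions turned for 5 named genes, all of them not called. The log2 change of Alb (-0.189) was 0.0122 in the 3 limma fits. That of Srebf1 (-0.197) was 0.126, 0.13 and 0.126 there, and -0.462 to 0.448 with a library left out. Glul (-0.0232) read 0.167, 0.169 and 0.167 in limma and -0.263 to 0.187 with a library left out. Per1 (0.248) ranged from -0.195 to 0.798 and Fos (0.107) from -0.501 to 0.849. The median of 20 of 57 lists changed sign in each limma fit, of 3 with the stricter filter, of 1 with counts divided by 4, of 3 to 5 with a control or early weaned library left out, and of 0 with a leucine library left out. The cause was not tested. If about 4 count units make a fragment, low genes carry more counting error than their counts show.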
